A study of Homo sapiens with 18 samples.

Results

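The comparison described here is the early response of SKMEL30 cells to induction of PPP2R3B, taken across all expressed genes. SKMEL30 is an established human melanoma line with a mutated NRAS. It had been made to carry PPP2R3B in the doxycycline-switched (tet-ON) lentiviral vector pTRIPZ and had been selected with puromycin. Of the 18 RNA-seq libraries of the series, 6 enter the comparison, chosen by their labels: 3 uninduced libraries, labelled untreated, and 3 libraries collected 6 h after doxycycline. All of them carry the vector, and no library received doxycycline without it, so effects of the drug and of the induced gene cannot be told apart. Another 3 libraries of the line at 18 h share the fit and the uninduced controls, and 6 libraries of a further NRAS-mutant melanoma line with the same construct, SKMEL2, uninduced and at 6 h, are set beside them. The labels do not say whether replicates were separate cultures, so p-values measure only the spread between these samples.

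PPP2R3B encodes PR70, a regulatory B″ subunit of protein phosphatase 2A (PP2A), a serine/threonine phosphatase. PP2A works as a complex of a scaffold subunit, a catalytic subunit and an exchangeable regulatory subunit that chooses the substrates. Melanoma cells can shift between a proliferative and an invasive state, a shift often tied to the transcription factor MITF. Doxycycline is a tetracycline antibiotic, a class known to act on mitochondrial ribosomes as well as on bacterial ones.

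Total expected counts ran from 16335231 to 18978064 in the uninduced libraries and from 13402645 to 22100405 at 6 h, and the biological coefficient of variation between SKMEL30 replicates was 4.11%. Melanocyte-lineage markers were abundant in every library, with all 10 listed genes tested and a summed level of 8860 to 9050 CPM (counts scaled to a common library size) uninduced and 8530 to 8910 CPM at 6 h. One library stood apart. Replicate 3 of the 6 h group held transcripts of stratified squamous epithelium, seen as 803 counts of KRT5 and 566 of KRT14, basal keratins, against 3 to 5.62 and 0 to 13 counts in the uninduced libraries. Of the other induced libraries, replicate 1 at 6 h held 38.2 KRT5 counts, replicate 2 at 6 h held 1, and replicate 3 at 18 h held 118. The 6 keratinocyte markers summed to 16.8 to 20.1 CPM uninduced, 19.1 to 85.6 CPM at 6 h and 17.6 to 30 CPM at 18 h. Most of the uninduced sum was KRT10, at 16.6 to 19.6 CPM. KRT1, a keratin of differentiated epidermis, was at 0 in every SKMEL30 library. The other members, KRT5, KRT14, DSG3 and TP63, summed to 0.217 to 1.2 CPM uninduced. At 6 h they summed to 5.31, 0.433 and 66.7 CPM in replicates 1, 2 and 3. KRT6A, KRT17, DSG3 and DSP, genes named after their values were seen, were high in replicate 3 at 6 h. In that library 41 genes exceeded 3 times their level in every other SKMEL30 library, against 1 to 8 genes in each of the others. None of the keratins passed the test (KRT5 adjusted p = 0.439). Calls that were lost without this library are marked as such, and its part in the results beyond that was not tested.

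**Figure D1:**
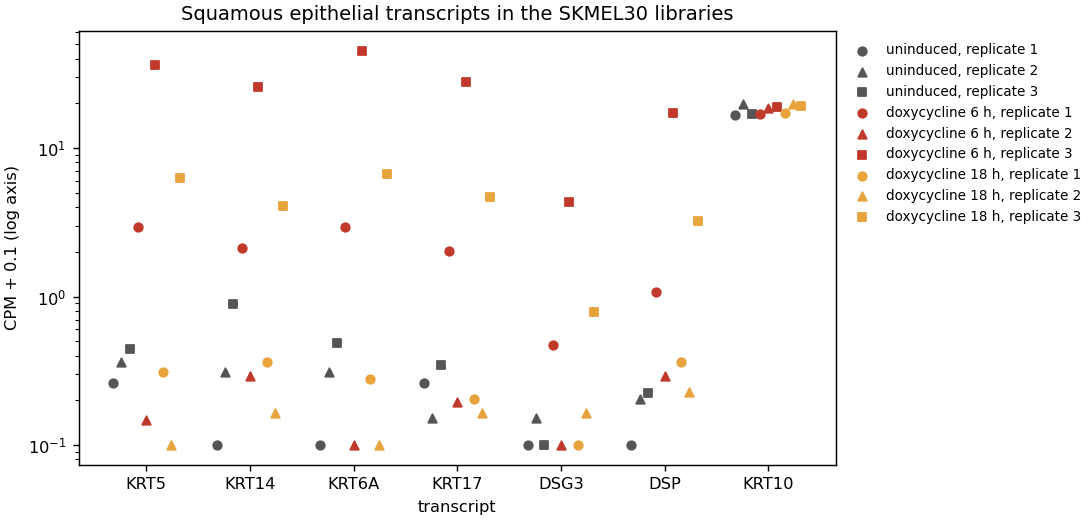
CPM plus 0.1, on a log axis, of 7 squamous epithelial transcripts in the 9 SKMEL30 libraries, with colour for the group and marker shape for the replicate. Replicate 3 at 6 h is highest for every transcript shown but KRT10, which is level in all libraries.

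Few genes moved within 6 h, and most moved little. Of 15026 genes tested, 31 passed (0.206%), 14 of them higher at 6 h (0.0932% of genes tested) and 17 lower (0.113%), by edgeR's quasi-likelihood test with Benjamini-Hochberg adjustment at 0.05. Only 5 of the 31 changed more than 2-fold: PPP2R3B, UNC5C and C21orf91 upward, SKAP1 and C4A downward. The median size of change among the called genes was 0.347 on the log2 scale, and the corresponding median over all genes tested was 0.0583. In all 31 the 6 h and uninduced libraries did not overlap, a pattern found in 11.17% of all genes tested. At an unadjusted p under 0.05, 482 genes were higher and 486 lower. Without replicate 3 of the 6 h group, 12 genes passed as higher and 5 as lower. Among the 17 that kept their call were PPP2R3B, C21orf91, UNC5C, SLC25A36, EPHA3, MT-CYB, MT-ATP6, MT-ATP8, MT-ND3, MT-ND2, MTATP6P1, MT-RNR2, SKAP1, CCN1, THBS1 and DKK1. The other 14 kept their direction, with adjusted p from 0.0672 to 0.252. The count of lower genes also fell to 5 without uninduced replicate 1 and to 8 without uninduced replicate 3, and to 10 when only the 6 libraries compared were fitted, so most of the lower calls depend on the full set of libraries.

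**Figure D2:**
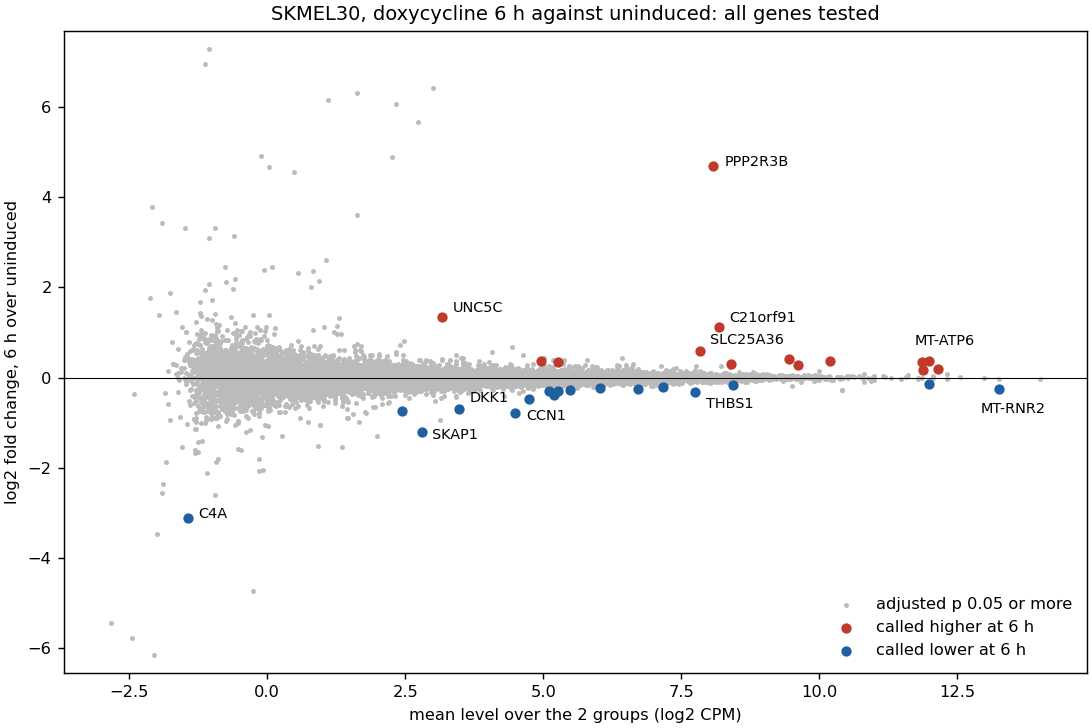
Log2 fold change at 6 h over uninduced against mean level (log2 CPM) for every gene tested, with called genes in red (higher) and blue (lower). Most called genes lie within 0.5 of zero, PPP2R3B stands far above, and the uncalled points high on the left include the squamous transcripts of a single library.

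The induced gene was checked first. PPP2R3B (ENSG00000167393) stood at 21.6, 19.1 and 19.8 CPM in the uninduced libraries and at 503, 512 and 546 CPM at 6 h. Every induced library was far above every uninduced one, a 25.8-fold difference (log2 fold change 4.69 ± 0.05 SE, adjusted p = 3.77e-17). The level at 18 h was 591 to 595 CPM, 0.19 ± 0.03 log2 units above 6 h, which did not pass (adjusted p = 0.141). Read counts cannot separate transcripts of the vector from those of the cells' own gene, which lies in the pseudoautosomal region shared by the sex chromosomes. Among 10 tested neighbours of PPP2R3B in that region none passed, with log2 fold changes from −0.63 to 0.14. The other PP2A genes gave no call either: 26 subunits and assembly factors were tested, 13 with a positive and 13 with a negative fold change, and their median was −0.001. The catalytic subunits PPP2CA (−0.01 ± 0.03) and PPP2CB (0.002 ± 0.033) and the scaffolds PPP2R1A (−0.04 ± 0.03) and PPP2R1B (0.03 ± 0.07), all log2 fold changes with SE, differed by no more than about their error. The other B″ genes PPP2R3A (0.05 ± 0.05) and PPP2R3C (0.06 ± 0.06) did likewise.

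C21orf91 was the endogenous gene with the smallest p. It lies on the minus strand of chromosome 21 (GRCh38.p14 positions 17788974 to 17819356, RefSeq), and little is established about the function of its protein. Its level was 183, 180 and 184 CPM uninduced and 393, 402.5 and 390 CPM at 6 h. All induced libraries lay far above all uninduced ones, with spreads of only 2.53 and 6.64 CPM (SD, n = 3 each), and the log2 fold change was 1.12 ± 0.03 (adjusted p = 1.74e-11). At 18 h the gene stood at 390 to 418 CPM, 0.03 ± 0.03 log2 units from 6 h, so the level at 6 h differed from that at 18 h by about its error. Of its measured neighbours on chromosome 21, USP25, CXADR, NCAM2, BTG3 and NRIP1, none passed, with log2 fold changes between −0.04 and 0.06.

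Among the other endogenous genes, UNC5C, a netrin receptor, rose from 5.05, 5.31 and 4.76 CPM to 13.7, 12.2 and 12.5 CPM (log2 fold change 1.33 ± 0.11, adjusted p = 1.69e-05). SLC25A36, a pyrimidine nucleotide carrier of the inner mitochondrial membrane, rose from 182, 181 and 184 CPM to 256, 285 and 277 CPM (0.58 ± 0.04, adjusted p = 2.96e-06). Neither pair of groups overlapped, and each gene kept its call under all 15 alternatives of processing and sample choice that were tried, as did PPP2R3B, C21orf91 and SKAP1. Of 45 mitochondrial carrier (SLC25) genes tested it was the sole one that passed, and the median of the family was −0.018. EPHA3, an ephrin receptor, rose from 31.8 to 35.5 CPM uninduced to 42.1 to 43.8 CPM at 6 h (0.35 ± 0.05, adjusted p = 0.00348) and stood at 48.7 to 49.8 CPM at 18 h.

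BZW1P2, a pseudogene of the translation regulator BZW1, was called as higher (0.36 ± 0.06, adjusted p = 0.0272), but not without replicate 3 of the 6 h group (adjusted p = 0.116). Its parent BZW1 was not (0.04 ± 0.03, adjusted p = 0.858), and reads can be divided wrongly between such copies.

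The promoters of 5 of the 14 genes called higher and 8 of the 17 called lower were found in the RefSeq table (GRCh38.p14), each from 250 bases before to 50 bases after the start. They were searched on both strands for GGAATG, the core of the TEAD site, for CACGTG (E-box), for CATGTG (M-box, bound by MITF) and for the CArG box of SRF. The upward genes C21orf91 and SLC25A36 and the downward genes THBS1 and DKK1 are printed 5′ to 3′ on the gene's strand, with matches in capitals. C21orf91 is shown as the endogenous gene of smallest p, and the other genes were picked because their windows held a match. C21orf91 lies at chr21:17819307-17819606 (minus strand), SLC25A36 at chr3:140941586-140941885, THBS1 at chr15:39580829-39581128 and DKK1 at chr10:52314031-52314330 (all plus strand).
C21orf91: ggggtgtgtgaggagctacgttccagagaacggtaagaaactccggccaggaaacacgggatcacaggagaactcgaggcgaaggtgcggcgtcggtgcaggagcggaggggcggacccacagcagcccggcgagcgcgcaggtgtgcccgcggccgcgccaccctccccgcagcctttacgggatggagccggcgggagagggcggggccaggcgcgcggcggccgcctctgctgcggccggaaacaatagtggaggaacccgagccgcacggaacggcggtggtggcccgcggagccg
SLC25A36: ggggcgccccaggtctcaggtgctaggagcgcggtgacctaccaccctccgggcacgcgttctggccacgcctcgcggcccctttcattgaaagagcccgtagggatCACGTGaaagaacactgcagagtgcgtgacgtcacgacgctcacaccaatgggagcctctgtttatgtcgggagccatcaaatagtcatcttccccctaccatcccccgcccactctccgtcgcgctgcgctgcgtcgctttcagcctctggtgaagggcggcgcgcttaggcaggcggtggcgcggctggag
THBS1: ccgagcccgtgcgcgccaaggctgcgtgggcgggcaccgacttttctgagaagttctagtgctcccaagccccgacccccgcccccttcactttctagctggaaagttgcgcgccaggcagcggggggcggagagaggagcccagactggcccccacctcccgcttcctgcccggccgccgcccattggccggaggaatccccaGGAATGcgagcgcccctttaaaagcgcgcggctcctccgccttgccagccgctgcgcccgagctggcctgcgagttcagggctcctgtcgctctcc
DKK1: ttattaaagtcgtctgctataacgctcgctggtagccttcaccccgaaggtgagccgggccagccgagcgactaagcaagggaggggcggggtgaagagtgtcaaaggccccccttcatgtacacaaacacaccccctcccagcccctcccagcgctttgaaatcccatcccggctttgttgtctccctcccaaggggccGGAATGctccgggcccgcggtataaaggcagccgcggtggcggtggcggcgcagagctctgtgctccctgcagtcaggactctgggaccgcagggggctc
None of the 4 motifs was found in the C21orf91 window, M-box included. SLC25A36 held an E-box 143 bases before its start, and ACTG1, called lower, held one too. An E-box was in 1 of the 5 promoters of genes called higher, 1 of the 8 of genes called lower and 10.3% of the 10719 promoters of tested genes. GGAATG began 46 bases before the start of THBS1, 50 before that of DKK1 and 36 before that of DACT1. It was present in 3 of the 8 promoters of genes called lower, in none of the 5 of genes called higher, and in 10.9% of all. THBS1, DKK1 and DACT1 are not members of the list of YAP and TEAD targets described below. The M-box was in DACT1 and NUDT4 (6.76% of all) and the CArG box in ACTG1 (1.07% of all). These are letter matches within a short window and show neither binding nor its absence.

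The mitochondrial genome gave 6 of the genes called higher and 1 of those called lower. It encodes 13 proteins, all subunits of the respiratory chain or ATP synthase, and 2 ribosomal RNAs. They are transcribed as long precursors that are then cut, so changes of its genes are not separate observations. Of the 13 protein-coding genes, 6 rose and none fell, with a list median of 0.081 on the log2 scale against 0.0005 over all genes tested. The rise was seen in both ATP synthase subunits, MT-ATP8 (0.40 ± 0.04, adjusted p = 6.93e-05) and MT-ATP6 (0.36 ± 0.03, adjusted p = 7.03e-06), in cytochrome b, MT-CYB (0.35 ± 0.03, adjusted p = 5.99e-06), and in 3 complex I subunits, MT-ND3 (0.29 ± 0.03), MT-ND2 (0.18 ± 0.03) and MT-ND1 (0.16 ± 0.03). By library, MT-ATP6 read 3594, 3671 and 3427 CPM uninduced and 4684, 4489 and 4522 CPM at 6 h, with no overlap. The remaining complex I and cytochrome oxidase subunits did not pass: MT-ND4, MT-ND4L, MT-ND5, MT-ND6, MT-CO1 and MT-CO3 had log2 fold changes from −0.04 to 0.01, and MT-CO2 read 0.08 ± 0.03 (adjusted p = 0.554). The large ribosomal RNA, MT-RNR2, fell in contrast, from between 10522 and 10671 CPM uninduced to between 8651 and 9132 CPM at 6 h (−0.26 ± 0.02, adjusted p = 1.57e-05). The small one, MT-RNR1, spread widely between replicates (−0.19 ± 0.19, adjusted p = 0.895). As all libraries were prepared from poly(A) RNA, ribosomal RNA counts also depend on how much of it was captured. MTATP6P1, a nuclear pseudogene copy of MT-ATP6, was called with it (0.30 ± 0.02) and may share its reads.

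**Figure D3:**
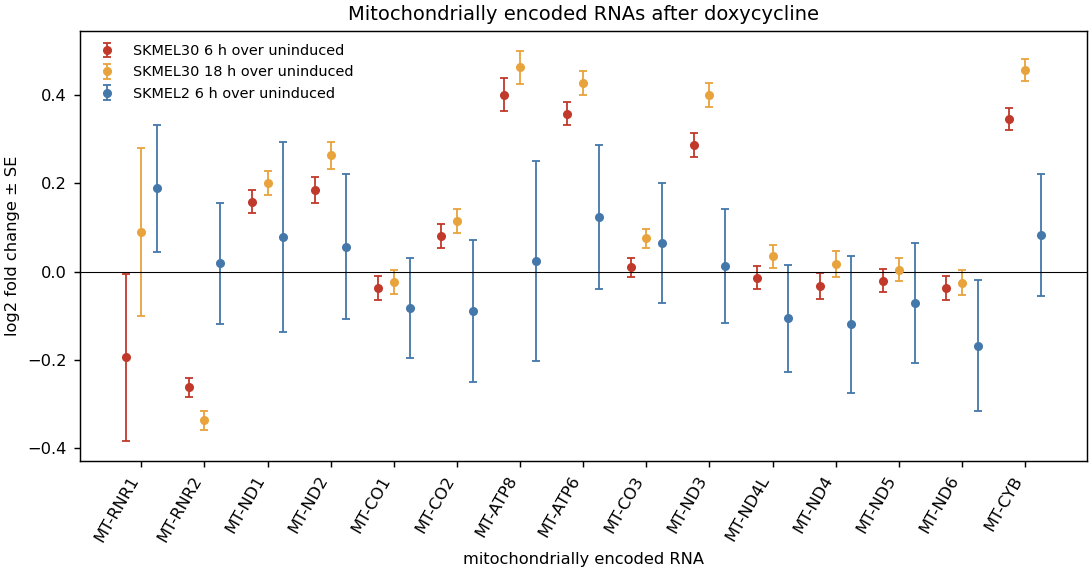
Log2 fold change over uninduced, with SE bars, of the mitochondrially encoded RNAs in SKMEL30 at 6 h and 18 h and in SKMEL2 at 6 h, in gene order along the genome. ATP8, ATP6, CYB and ND3 rise most in SKMEL30 at both times while RNR2 lies below zero, and the SKMEL2 points carry error bars several times wider.

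The mRNAs of the mitochondrial genome together took 5.66% to 6.05% of counts uninduced, 6.05% to 6.24% at 6 h and 6.26% to 6.37% at 18 h. Without replicate 3 of the 6 h group, MT-ATP6, MT-CYB, MT-ND3, MT-ATP8 and MT-RNR2 kept their calls, with adjusted p at most 0.00105. MT-ND2 passed at 0.0427 and MT-ND1 did not (adjusted p = 0.137), and each passed in 9 of the 15 alternatives. MT-ATP6, MT-CYB, MT-ND3, MT-ATP8 and MT-RNR2 each passed in 14, losing their calls in the single fit of all 18 libraries.

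The genes called lower include listed targets of YAP, a coactivator that responds to cell shape and contact, and of its partner transcription factors, the TEAD proteins. CCN1, a secreted matricellular protein and YAP target, had the smallest p of the nuclear genes that fell, from 29.1, 28.0 and 28.2 CPM to 15.96, 18.3 and 14.9 CPM (log2 fold change −0.79 ± 0.07, adjusted p = 6.93e-05). AMOTL2, an angiomotin that binds YAP, fell from 39.8 to 44.9 CPM to 31.2 to 32.7 CPM (−0.39 ± 0.06, adjusted p = 0.00716). THBS1, thrombospondin 1, is another secreted matricellular protein but is not on the list of YAP and TEAD targets. It fell from 248.6, 233 and 235 CPM to 201, 190 and 183 CPM (−0.32 ± 0.04, adjusted p = 0.000928). For each of these the induced and uninduced libraries were separate. DLC1, a GTPase-activating protein on the list (−0.22 ± 0.03, adjusted p = 0.0108), was also called. So were PRAG1, a pseudokinase (−0.47 ± 0.07, adjusted p = 0.00914), and ACTG1, cytoplasmic gamma-actin (−0.15 ± 0.02, adjusted p = 0.0172), neither of them listed. ACTB read −0.11 ± 0.03 and did not pass (adjusted p = 0.451). SRF, a transcription factor of cytoskeletal genes, lay just outside the threshold (−0.22 ± 0.04, adjusted p = 0.0658).

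Of 23 tested YAP and TEAD targets, 3 fell (CCN1, AMOTL2 and DLC1), none rose, and 18 had a negative fold change, as did 49.7% of all genes tested. Their median was −0.117, against 0.0005 over all genes. At an unadjusted p under 0.05, 8 were lower and none higher, with 3.23% of all genes lower at that level. Members that did not pass included CCN2 (−0.29 ± 0.10, adjusted p = 0.624) and ANKRD1, which read 2.62 ± 0.50 CPM uninduced and 1.27 ± 0.21 CPM at 6 h (SD, n = 3 each) and had a log2 fold change of −1.05 ± 0.24 (adjusted p = 0.171). In the SKMEL2 libraries, 18 of 22 tested members had a negative fold change at 6 h, with a median of −0.152. As the list was chosen with earlier results of these data known, these counts are not an independent test of it. Of the genes tested in both lines, 48.6% had a negative fold change in SKMEL2, and the median was 0.004. The count of negative signs in SKMEL30 was not particular to the YAP and TEAD list. Negative fold changes were found there for 18 of 22 cholesterol genes, 12 of 15 WNT targets, 14 of 18 lineage factors and 17 of 23 immediate-early genes. Mitosis genes (14 of 30) and cytosolic chaperones (6 of 19) had no such lean. Without replicate 3 of the 6 h group, CCN1 (−0.72, adjusted p = 0.000697) kept its call. The other called members of the YAP and TEAD list, AMOTL2 (−0.38, adjusted p = 0.0672) and DLC1 (−0.19, adjusted p = 0.0749), missed the threshold. Outside that list, THBS1 (−0.29, adjusted p = 0.00828) kept its call, whereas PRAG1 (−0.46, adjusted p = 0.0729) and ACTG1 (−0.16, adjusted p = 0.0749) missed the threshold.

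Genes of WNT signalling and of melanocyte identity moved in small numbers. DKK1, a secreted WNT antagonist, fell from 14.5, 11.8 and 15.0 CPM to 8.05, 8.17 and 9.02 CPM (−0.70 ± 0.10, adjusted p = 0.00716), and DACT1, an adaptor of the same pathway, read −0.31 ± 0.06 (adjusted p = 0.0373). DKK1 was the sole call among 15 WNT and beta-catenin targets, whose median was −0.037. Of 18 lineage factors tested, POU3F2 (BRN2), a neural-type transcription factor linked to the invasive state, was called, falling from 40.3 to 44.2 CPM to 33.7 to 35.5 CPM (−0.31 ± 0.05, adjusted p = 0.0337). The median of that list was −0.068, and 8 members were lower and none higher at an unadjusted p under 0.05 (3.23% of all genes were lower at that level), SNAI2 among them (−0.20 ± 0.04, adjusted p = 0.0806). In SKMEL2 at 6 h the lean of this list was not seen, with 9 of 18 members negative and a median of −0.0073. POU3F2 itself read −0.31 ± 0.08 in SKMEL2 (unadjusted p = 0.0029), which did not pass over all genes (adjusted p = 0.989). TBX2, a T-box transcriptional repressor (−0.25 ± 0.04, adjusted p = 0.016), and MEF2C, a MADS-box factor (−0.23 ± 0.04, adjusted p = 0.0366), were called as well in SKMEL30. Without replicate 3 of the 6 h group none of POU3F2 (adjusted p = 0.2), DACT1 (0.203), MEF2C (0.194) and TBX2 (0.0749) passed, while DKK1 did (0.0234). Of the 15 alternatives, POU3F2 passed in 7, DACT1 in 5, MEF2C in 4 and TBX2 in 10, and DESeq2 gave POU3F2 an adjusted p of 0.0649. MITF read 761, 759 and 787 CPM uninduced and 760, 770 and 733 CPM at 6 h, and these overlap (−0.03 ± 0.03, adjusted p = 0.9). None of 23 MITF targets and pigment genes passed, and their median was −0.002. The invasive-state list of 22 tested genes held CCN1 and THBS1 as its 2 calls and had a median of −0.020.

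The remaining genes called lower belong to none of these lists. SKAP1, an adaptor of T-cell receptor signalling, fell from 9.45, 11.1 and 8.43 CPM to 4.29, 4.28 and 4.06 CPM (−1.20 ± 0.13, adjusted p = 0.000392). THBD, thrombomodulin, read −0.27 ± 0.05 at adjusted p = 0.0496, just inside the threshold, and passed in 5 of the 15 alternatives (adjusted p = 0.224 without replicate 3 of the 6 h group). C4A, a complement component, was called on 9.58 to 15.7 counts uninduced and 0.51 to 2.40 counts at 6 h. Its near-identical copy C4B went the other way, from 8.31 to 11.4 counts to 11.1 to 25.6 counts, and the sum of both was 20 to 24 counts uninduced and 12 to 28 counts at 6 h, so the groups overlap once the copies are pooled. NUDT4, a diphosphoinositol phosphatase, read −0.18 ± 0.03 and shares sequence with NUDT4B, which read −0.08 ± 0.07. NUDT4 did not pass without replicate 3 of the 6 h group (adjusted p = 0.224), nor did C4A (adjusted p = 0.252). Just outside the threshold lay ID4 (adjusted p = 0.0653), SRF and SNAI2 among lower genes, and ANKRD54 (0.0783), SKA3 (0.0806) and the unnamed gene ENSG00000254701 (0.0976) among higher ones.

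**Figure D4:**
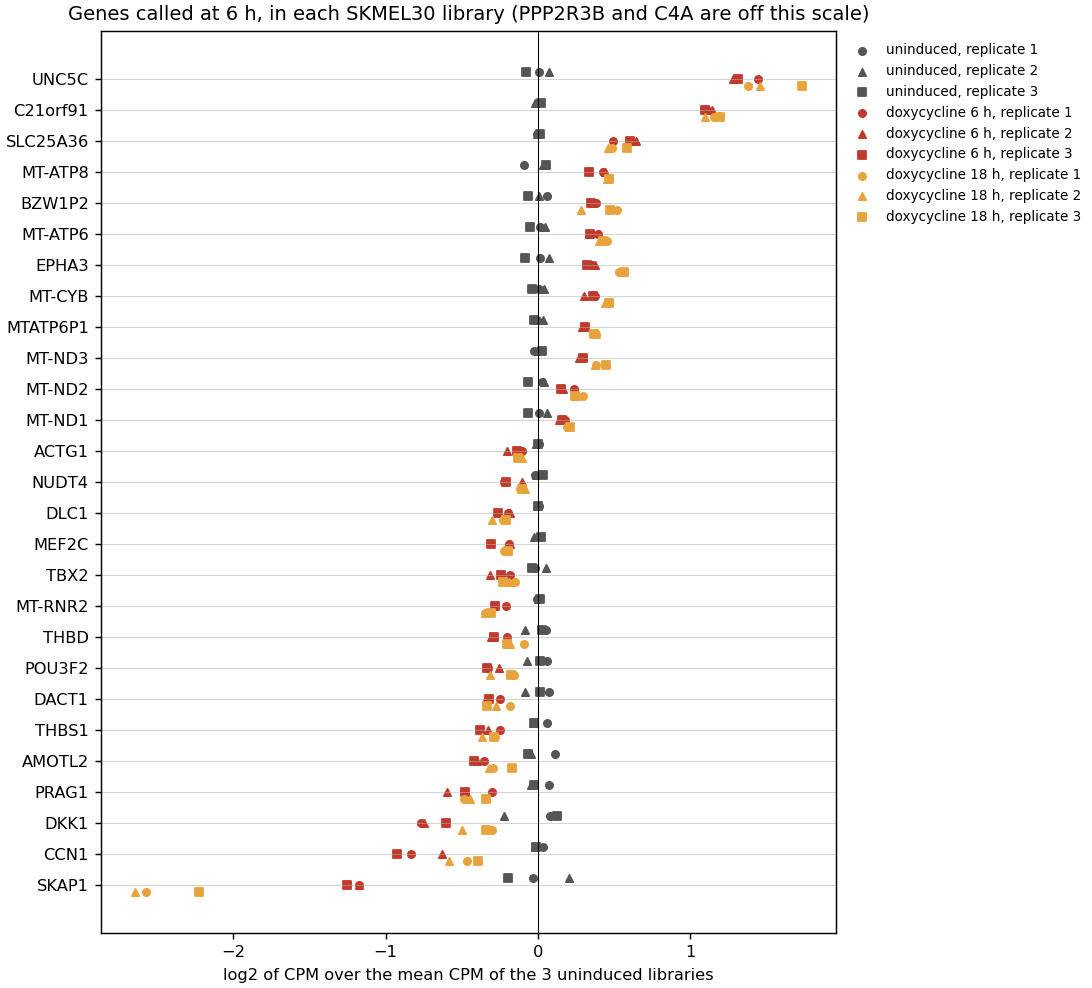
Level of called genes in each SKMEL30 library, as log2 of CPM over the uninduced mean, with colour for the group and marker shape for the replicate (PPP2R3B and C4A omitted). The red 6 h points lie on 1 side of the grey uninduced points for every gene shown, and SKAP1 moves further at 18 h.

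The other gene groups listed for this comparison gave no call at 6 h. None passed among 30 DNA replication and G1/S genes (median −0.011, CDC6 at −0.01 ± 0.03), 30 mitosis genes (0.008), 26 ERK output genes (−0.036, MYC at −0.14 ± 0.04 with adjusted p = 0.337) or 23 immediate-early genes (−0.055, FOSL2 at −0.29 ± 0.06 with adjusted p = 0.106). Of the stress and metabolic lists, 21 p53 targets (0.007), 28 ATF4 targets (0.012), 19 cytosolic chaperones (0.018), 27 endoplasmic reticulum folding genes (0.003), 28 glycolysis and hypoxia genes (−0.004), 27 mTOR and lysosome genes (−0.014) and 22 cholesterol genes (−0.031) held no called member. Among inflammatory lists, 25 interferon-stimulated genes (−0.020) and 13 NF-kB targets (0.041) likewise held none. A list without calls does not show that its genes stayed level, only that no member passed at this depth and replication.

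At 18 h against the same uninduced libraries, 44 genes passed (0.293%). The time of 18 h is that of the labels, whereas the paper names an earlier hour for its later RNA-seq samples. As both comparisons use the same controls, their values are only set side by side: all 14 genes called higher at 6 h also passed at 18 h, as did 6 of the 17 called lower. Of the genes called lower, 14 of 17 had a smaller change at 18 h, among them CCN1 (−0.79 at 6 h, −0.48 at 18 h) and DKK1 (−0.70 and −0.37). Among all genes with a negative fold change at 6 h, 61.8% had a less negative or a positive one at 18 h. Of the genes called higher, 13 of 14 had a larger change at 18 h, as in EPHA3 (0.35 and 0.54) and MT-CYB (0.35 and 0.46). SLC25A36 was the exception. The share with a larger change among all genes with a positive fold change at 6 h was 37.3%. The 14 include the induced gene PPP2R3B. They also include 6 mitochondrially encoded genes, which share precursors, and MTATP6P1, which may share their reads. The direct test of 18 h against 6 h called 3 genes (0.02%). These were SKAP1, which fell further to 1.54 to 2.06 CPM (−1.26 ± 0.17, adjusted p = 0.0287), the cyclin gene CCND1 (−0.17 ± 0.02, adjusted p = 0.0287) and the membrane repair gene MYOF (−0.19 ± 0.03, adjusted p = 0.0381). Without replicate 3 of the 6 h group, none of the 3 passed, nor without replicate 2 or replicate 3 of the 18 h group, and DESeq2 called 12 genes. Neither CCN1 (0.31 ± 0.08, adjusted p = 0.551) nor DKK1 (0.33 ± 0.10, adjusted p = 0.771) passed in that test. EPHA3 (0.20 ± 0.04, adjusted p = 0.434) and MT-CYB (0.11 ± 0.03, adjusted p = 0.434) did not pass in it either.

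The SKMEL2 line offers libraries that took no part in choosing these genes. SKMEL2 at 6 h called 2 genes (0.0124%), PPP2R3B and C21orf91, and its replicates spread more, with a biological coefficient of variation of 8.36%. KRT5 was present in SKMEL2 libraries too, at 82 to 141.8 counts uninduced and 0 to 61 at 6 h, and its part in these values was not tested. Of the 31 SKMEL30 genes, 27 were tested in SKMEL2 and 25 had the same direction there, 14 of 14 higher and 11 of 13 lower. The 14 include the induced gene PPP2R3B itself, 6 mitochondrially encoded genes and MTATP6P1. As the mitochondrial genes share precursors and MTATP6P1 may share their reads, their directions are not separate agreements. Over the 14079 genes tested in both lines, 45.57% had the same direction. At an unadjusted p under 0.05 in SKMEL2, 11 of the 27 moved in the same direction and none in the opposite, against 1.66% of all genes that did so. C21orf91 rose there from 95.3 to 123.4 CPM to 203 to 256 CPM (log2 fold change 1.13 ± 0.10, adjusted p = 0.000746). SLC25A36 had a log2 fold change of 0.56 ± 0.09 in SKMEL2 (adjusted p = 0.143), against 0.58 ± 0.04 in SKMEL30. DLC1 had −0.35 ± 0.06 (adjusted p = 0.321), against −0.22 ± 0.03 in SKMEL30. Neither passed over all genes in SKMEL2.

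Some genes had unlike values in the lines. UNC5C read 0.87 to 2.07 CPM in uninduced SKMEL2 and 1.37 to 1.66 CPM at 6 h (0.11 ± 0.32), and the difference of its response from that in SKMEL30 was −1.22 ± 0.30 (unadjusted p = 0.000777, adjusted p = 0.902). ACTG1 (0.09 ± 0.09) and MT-RNR2 (0.02 ± 0.14) had no negative change there. The called mitochondrial mRNAs had log2 fold changes of 0.01 to 0.12 in SKMEL2 with SE of 0.13 to 0.23. The test of their difference between the lines gave unadjusted p from 0.0732 to 0.728. The test of the difference between the 6 h responses of the lines called 0 of 17133 genes (0%) by edgeR and 0 by DESeq2, with 842 at an unadjusted p under 0.05. Among the 31 genes the lowest adjusted p of that difference was 0.0693, for C4A.

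**Figure D5:**
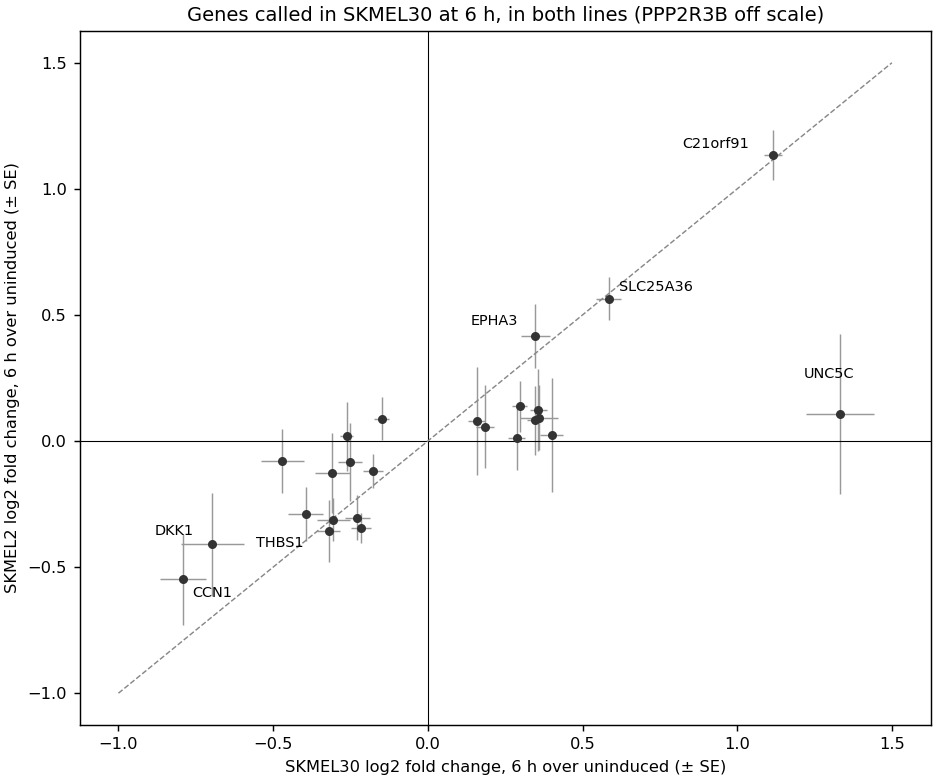
Log2 fold changes at 6 h over uninduced, with SE bars, in SKMEL30 (horizontal) and SKMEL2 (vertical) for genes called in SKMEL30 and tested in both, PPP2R3B omitted. C21orf91, SLC25A36 and EPHA3 lie near the dashed line of equal change, whereas UNC5C lies far to its right.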

How the data were processed

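RNA was prepared with a poly(A)-selecting mRNA kit and sequenced as short read pairs. Per the labels and the study's methods the authors trimmed reads, aligned them with STAR to GRCh38 and estimated counts per Ensembl gene with RSEM (the submitters' notes list Trimmomatic 0.36, cutadapt 1.5, STAR 2.2.2a, SAMtools 1.8 and RSEM 1.3.0). The deposited values are RSEM expected counts for 58051 genes in 18 libraries, not normalised, of which 12.3% are not whole. They were rounded. Genes were kept by filterByExpr, scaled by TMM and fitted in edgeR 4.0.16 (R 4.3.3) by the quasi-likelihood test over the 9 SKMEL30 libraries, with Benjamini-Hochberg adjustment over all genes tested and a threshold of 0.05. The difference between lines was fitted over all 18 libraries. SE is the fold change divided by the square root of F, and CPM use TMM-scaled library sizes, except for list sums, squamous transcripts and copies, which use totals. DESeq2 1.42.0 was an alternative. Genes named are PPP2R3B, C21orf91, MITF and CDC6, every called gene, the 3 nearest uncalled genes in each direction, the leading and called members of each list, neighbours and PP2A subunits. Other list members and squamous genes named in the text were picked after their values were seen. The members and the 23 gene lists and 6 marker lists were chosen with earlier results of these data known. Replicate pairs differed by more than counting noise (chi-square per degree of freedom 2.08 to 5.63), so none was treated as a duplicate. With 3 libraries against 3, an exact permutation test cannot go below p = 0.1. The scripts were tested on simulated counts. Some called genes count in the totals but are not reported here.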

Additional observations from a re-analysis of the deposited data

How the results depend on the processing

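The direction of all 31 called genes held under each of the 15 alternatives in which the gene was tested, and 5 genes (PPP2R3B, C21orf91, SLC25A36, SKAP1 and UNC5C) passed in every one. The count of genes called higher (14) became 201 with no filter on low counts, 4 with all 18 libraries in a single fit, and 11 to 15 when a library was left out. The count of genes called lower (17) became 120 with no filter, 10 with only the 6 libraries compared, 1 with all 18 libraries, and 5 to 19 when a library was left out. It was 5 without replicate 3 of the 6 h group, 5 without replicate 1 and 8 without replicate 3 of the uninduced group, and 5 without both libraries with the most keratin transcripts, an alternative chosen after seeing the data. The cause was not tested. The 3 genes called between 18 h and 6 h became 12 with DESeq2, 197 with no filter, 5 with at least 10 counts in every library, 0 with libraries thinned to the smallest total, 0 with only the libraries compared, 0 with all 18 libraries, 0 without the libraries with keratin transcripts, and 0 to 5 with a library left out. The difference between the lines (0 genes) became 237 with no filter and 0 to 1 with a library left out. Deviations of same-numbered libraries correlated at −0.022 to 0.119. The values between 6 h and 18 h were all positive (0.072, 0.119 and 0.082), so whether replicate numbers pair the samples was not settled. With the replicate block, 23 genes were called higher, 17 lower and 16 between 18 h and 6 h. With 3 libraries a group, small changes of genes with few counts were not detectable at this depth.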
